A study of Mus musculus with 14 samples.

Results

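Cell division and DNA replication genes were followed in the lactating mammary gland. The members are 38 listed proliferation genes that are present in the tables of both mice, of 20515 genes with a usable symbol, and they were divided by role into 17 DNA replication and S phase genes and 21 mitosis genes. The study fused *Wap* regulatory elements to the neighboring *Tbrg4* gene by CRISPR-Cas9 deletion and examined mammary tissue at day 10 of lactation (L10). The series holds 14 samples, of which 2 are total RNA-seq samples and 12 are ChIP-seq samples that are not analysed here. Both RNA-seq samples, replicate 1 and replicate 2, are mammary glands of wt/Wap-Tbrg4 mice (labelled WT_wTbrg4). The names of the deposited tables spell the genotype differently, and the sample labels were followed. These C57BL/6 mice were heterozygous: beside a wt allele they carried a Wap-Tbrg4 allele, in which the *Wap* enhancers and promoter, active in mammary secretory epithelium, drive *Tbrg4*. The age of the mice is not given in the sources used here. The values are exon and intron FPKM, fragments per kilobase of feature per 1000000, deposited with 1 decimal, so a value of 0.0 covers anything under 0.05. With 1 genotype and 2 mice no test between groups was possible, and the values describe these 2 glands.

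A dividing cell copies its DNA in S phase and separates the copies in mitosis. In G1, the MCM helicase is loaded on origins by Cdc6 and Cdt1, and cyclin E and E2F factors start S phase. During S phase, Pcna holds the polymerases on DNA. Cyclins A and B with Cdk1, the Aurora and Polo kinases, kinesins and the spindle checkpoint act later, in G2 and mitosis. Mammary alveolar cells proliferate in pregnancy, and many replicate DNA without dividing as lactation begins.

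Most members had means below 1. A mean of 1 or more exon FPKM was reached by 12 of the 38 members, compared with 48.0% of all genes. The classes differed in this count, with 10 of 17 DNA replication members and 2 of 21 mitosis members (*Mki67* and *Top2a*). At a mean of 0.5 the count was 20 of 38, close to the 53.9% of all genes, with 13 of 17 and 7 of 21. The median exon FPKM of the DNA replication members was 1.4 in replicate 1 and 0.9 in replicate 2 (1.15 ± 0.354, SD, n = 2 mice). The median of the mitosis members was 0.3 and 0.2 (0.25 ± 0.0707, SD, n = 2). The tissue is a mixture of cells, so fewer cells of a type and less RNA per cell cannot be told apart. Among all genes, the median member of the replication class lay at percentile 53.8 of mean exon FPKM and the median mitosis member at percentile 42.1.

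**Figure D1:**
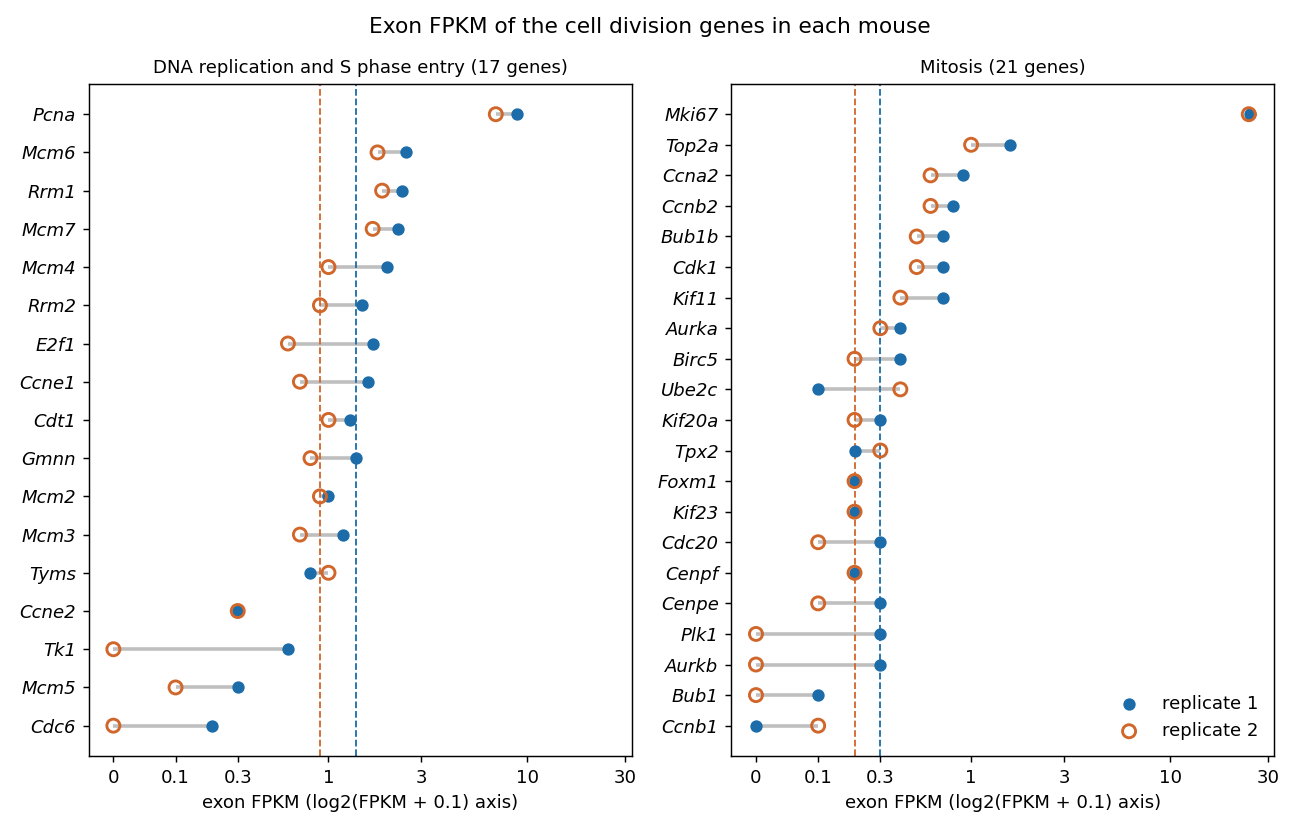
Exon FPKM of the 17 DNA replication members (left) and the 21 mitosis members (right) in replicate 1 (filled) and replicate 2 (open), on a log2(FPKM + 0.1) axis, with dashed lines at each mouse's class median. Replication medians are 1.4 and 0.9, mitosis medians 0.3 and 0.2, and *Mki67* lies far to the right of its class at 24.4 and 24.2.

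*Mki67*, which encodes the Ki-67 protein that coats mitotic chromosomes, stood apart from every other member. In replicate 1 it had 24.4 exon FPKM and in replicate 2 it had 24.2 (24.3 ± 0.141, SD, n = 2), rank 1207 of the 20515 genes. *Top2a*, the topoisomerase that untangles sister chromatids and the next highest mitosis member, had 1.6 and 1.0. The exon FPKM of *Mki67* was thus 15.2 and 24.2 times that of *Top2a*, and 81.3 and 121 times the mitosis median. *Mki67* alone held 38.7% of the summed exon FPKM of the 38 members in replicate 1 and 47.9% in replicate 2. Without it, the summed exon FPKM of the other 20 mitosis members was 8.7 and 5.9. RefSeq lists no gene overlapping *Mki67*, and no near-identical copy of its coding sequence was found in the genome. Why *Mki67* was high while its class was low was not tested.

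The promoters of 4 members are shown because these genes have the highest exon FPKM of their class: *Mki67* and *Top2a* for mitosis, and *Pcna* and *Mcm6* (level with *Rrm1*) for replication. Each run is the 250 bases before the RefSeq start on GRCm38.p6, read 5′ to 3′ on the minus strand, at chr7:135716380-135716629 for *Mki67*, chr11:99024190-99024439 for *Top2a*, chr2:132253181-132253430 for *Pcna* and chr1:128359706-128359955 for *Mcm6*. Capitals mark CCAAT on either strand, the CHR letters TTTGAA or TTCGAA on either strand, and the E2F letters TTTCCCGC, TTTCGCGC, TTTGCCGC or TTTGGCGC on either strand. Matches of the E2F letters overlap each other in *Mcm6*.
Mki67: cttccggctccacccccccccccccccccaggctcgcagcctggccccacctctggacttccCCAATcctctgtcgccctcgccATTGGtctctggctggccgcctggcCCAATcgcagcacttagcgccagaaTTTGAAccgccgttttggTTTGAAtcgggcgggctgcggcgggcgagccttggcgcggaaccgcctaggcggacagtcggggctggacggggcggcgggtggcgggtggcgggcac
Top2a: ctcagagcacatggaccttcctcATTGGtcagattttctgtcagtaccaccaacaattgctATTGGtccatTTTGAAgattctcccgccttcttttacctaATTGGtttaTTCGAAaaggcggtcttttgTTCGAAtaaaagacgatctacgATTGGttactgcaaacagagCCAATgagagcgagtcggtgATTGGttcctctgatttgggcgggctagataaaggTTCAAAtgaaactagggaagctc
Pcna: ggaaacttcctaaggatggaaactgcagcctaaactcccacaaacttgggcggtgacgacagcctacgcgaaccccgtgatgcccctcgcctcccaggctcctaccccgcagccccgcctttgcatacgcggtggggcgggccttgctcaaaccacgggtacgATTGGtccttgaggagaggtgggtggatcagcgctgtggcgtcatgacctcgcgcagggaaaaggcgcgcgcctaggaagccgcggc
Mcm6: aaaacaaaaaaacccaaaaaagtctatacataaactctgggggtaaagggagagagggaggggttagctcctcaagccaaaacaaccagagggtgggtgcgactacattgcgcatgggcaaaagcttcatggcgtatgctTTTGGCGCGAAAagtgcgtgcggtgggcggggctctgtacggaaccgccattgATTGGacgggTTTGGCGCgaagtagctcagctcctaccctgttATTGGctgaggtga

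*Mki67* and *Top2a* both hold CCAAT and CHR letters, *Pcna* holds CCAAT alone, and *Mcm6* holds CCAAT and E2F letters. *Mki67*, the highest member, has 2 CHR and 3 CCAAT matches in its 250 bases, and *Top2a*, with a far lower FPKM, has 4 and 6. The RefSeq table held promoters of 30 of the 38 members and not of *Mcm4*, *Ccne2*, *Gmnn*, *Ccna2*, *Aurkb*, *Kif20a*, *Tpx2* and *Foxm1*. In its whole windows of 300 bases, which add 50 bases after the start, CHR letters were found in 13 of 16 mitosis members and in 2 of 14 replication members, compared with 19.2% of all 32851 promoters. E2F letters were found in 6 of 14 replication members and 1 of 16 mitosis members, compared with 2.26% of all promoters. CCAAT was found in 15 of 16 mitosis and 8 of 14 replication members, compared with 37.4%. In the 250 bases alone, CHR letters were in 8 of 16 mitosis members and 17.1% of all promoters, and E2F letters in 4 of 14 replication members and 1.86% of all promoters. A match describes letters and not a bound site.

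The MCM subunits, which form the replicative helicase, were all detected in both mice but not at one level. *Mcm6* had an exon FPKM of 2.5 in replicate 1 and 1.8 in replicate 2. *Mcm7* had 2.3 and 1.7, and *Mcm4* had 2.0 and 1.0. These 3 subunits reached a mean of 1. *Mcm2* had 1.0 and 0.9, and *Mcm3* had 1.2 and 0.7. *Mcm5* was lowest, with 0.3 and 0.1. The helicase itself holds the subunits in equal number. All 6 subunits were higher in replicate 1 as deposited, compared with 53.2% of all genes above 0 in either mouse, and after median-ratio scaling (49.4% of genes). They were also after rescaling to an equal summed FPKM, when 92.9% of genes were.

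*Pcna*, the sliding clamp, was the highest member of the class, with 8.9 in replicate 1 and 7.0 in replicate 2 (7.95 ± 1.34, SD, n = 2). *Rrm1* and *Rrm2* encode the subunits of ribonucleotide reductase, which makes deoxynucleotides. *Rrm1* had 2.4 and 1.9, and *Rrm2* had 1.5 and 0.9. The thymidylate genes had lower means, although *Tyms* exceeded *Rrm2* in replicate 2. *Tyms*, thymidylate synthase, had 0.8 and 1.0, higher in replicate 2 as deposited and in replicate 1 after rescaling to an equal sum. *Tk1*, thymidine kinase, had 0.6 in replicate 1 and was listed at 0 in replicate 2.

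Among the licensing factors, *Cdt1* had an exon FPKM of 1.3 and 1.0 and its inhibitor *Gmnn* had 1.4 and 0.8. *Cdc6*, which loads the helicase together with Cdt1, had 0.2 in replicate 1 and was listed at 0 in replicate 2. Of the genes that start S phase, *E2f1*, a transcription factor, had 1.7 in replicate 1 and 0.6 in replicate 2. *Ccne1*, a cyclin E gene, had 1.6 and 0.7. The second cyclin E gene, *Ccne2*, had 0.3 in each mouse. *E2f1* overlaps *Necab3* on the same strand, so reads of these genes may be mixed.

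In the mitosis class, 19 of the 21 members were below 1 in both mice. After *Mki67* and *Top2a*, 5 members averaged at least 0.5. *Ccna2*, cyclin A, had 0.9 in replicate 1 and 0.6 in replicate 2. *Ccnb2*, a cyclin B gene, had 0.8 and 0.6, and its partner kinase *Cdk1* had 0.7 and 0.5. *Bub1b*, of the spindle checkpoint, had 0.7 and 0.5. The motor *Kif11*, which separates the spindle poles, had 0.7 and 0.4.

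The lowest mitosis members were at the last printed decimal. *Ccnb1*, the other cyclin B gene, was listed at 0 in replicate 1 and had 0.1 in replicate 2. *Bub1*, a checkpoint kinase, had 0.1 and was listed at 0 in replicate 2. *Plk1* and *Aurkb*, the Polo and Aurora B kinases, each had 0.3 in replicate 1 and were listed at 0 in replicate 2. *Cdc20* and *Ube2c*, which act with the anaphase-promoting complex, had 0.3 and 0.1, and 0.1 and 0.4. *Foxm1*, the factor that activates many mitosis genes, had 0.2 in each mouse. The other members (*Aurka*, *Birc5*, *Cenpe*, *Cenpf*, *Kif20a*, *Kif23* and *Tpx2*) lay between 0.1 and 0.4. In all, 6 of the 38 members were listed at 0 in at least 1 mouse and none in both. Of all 20515 genes, 7511 were at 0 in at least 1 mouse and 6190 in both. A listed 0 need not mean that no RNA was present, since the housekeeping gene *Ppia* was listed at 0.4 and 0.

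Set against each other, the class medians had a ratio of 4.67 in replicate 1 and 4.50 in replicate 2. On the log2 scale this was 2.22 and 2.17 (2.20 ± 0.0371, SD, n = 2). This SD rests on medians printed with 1 decimal. Rounding alone allows 1.95 to 2.54 in replicate 1 and 1.77 to 2.66 in replicate 2, so the spread between the mice is not resolved. In both mice, 13 of the 17 replication members exceeded the mitosis median, and 2 of the 21 mitosis members exceeded the replication median. Leaving out *Gmnn*, *Ccna2*, *Top2a* and *Mki67*, whose transcripts span both phases, gave the same value. The ratio was reversed, at -3.23, when only members with a mean of at least 1 were used, because *Mki67* and *Top2a* then were the whole mitosis class. It was 1.17 with means of log2(FPKM + 0.1) in place of medians. Genes are not replicates, and no test of this ratio was made.

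Depth limits these values. Low values of short features were whole multiples of what 1 read is worth, within the rounding of 0.05, in 85.4% of 48 values in replicate 1 and 80.0% of 35 in replicate 2. Rounding alone spans 29.7% and 16.9% of a step. One read was worth 0.101 FPKM over 1 kb of feature in replicate 1 and 0.198 in replicate 2, a ratio of 1.97, so a gene of equal FPKM rested on fewer reads in replicate 2. The estimated exon reads were about 12000000 and 11200000 in all, and about 4860000 and 2460000 without the 10 highest genes. These shares and steps come from the same values. On RefSeq exon lengths the *Mki67* values stand for about 2446 and 1231 reads. The median replication member had about 33 and 11 reads and the median mitosis member about 12 and 4. In replicate 2, 22 of the 38 members rested on under 10 estimated reads, and in replicate 1, 11 members. *Mki67* was the only member with at least 100 in both mice.

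From these reads, 95% Poisson intervals were calculated, which cover counting error only. The values here are as deposited unless stated. *Mcm6* had an interval of 2.05 to 3.01 FPKM in replicate 1 and 1.28 to 2.43 in replicate 2, so the mice overlapped. *Pcna* overlapped too, with 7.36 to 10.7 and 5.16 to 9.46. *E2f1* had 1.26 to 2.21 and 0.263 to 1.09, which did not overlap. *Tk1*, listed at 0 in replicate 2, had an upper bound of 0.534 there and an interval of 0.254 to 1.16 in replicate 1. The intervals overlapped for 37 of the 38 members, compared with 72.2% of 14142 genes above 0 in either mouse that have a RefSeq model, and also for 37 after median-ratio scaling, compared with 72.4%. As deposited, *E2f1* was thus the only member whose intervals were apart. Overlap of the intervals of single genes does not show that the mice were equal. Intervals widen as reads fall, and most members rested on few reads. The other genes were not matched to the members in reads, so the shares do not show that members differed less between the mice. After rescaling to an equal sum the intervals overlapped for 19 of 38, compared with 37.8% of genes, and those of *Mcm6* (2.40 to 3.53 and 0.714 to 1.36) and *Pcna* (8.62 to 12.6 and 2.88 to 5.29) were apart. The result depends on the scaling, and which scaling is right was not tested.

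**Figure D2:**
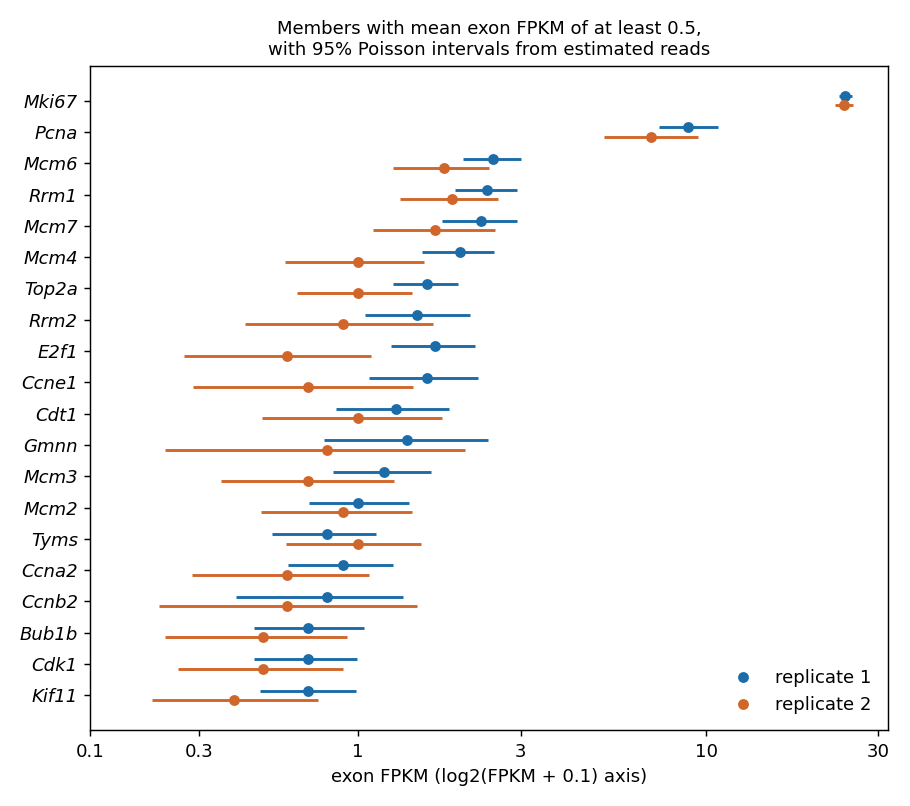
Exon FPKM of the members with a mean of at least 0.5 in replicate 1 (blue) and replicate 2 (orange) on a log2(FPKM + 0.1) axis, with bars for 95% Poisson intervals from estimated reads (counting error only). The bars of *Mki67* are narrow, from 23.4 to 25.4 and from 22.9 to 25.6, and those of *E2f1* do not overlap. Values are as deposited. After rescaling to an equal sum the intervals of 19 of the 38 members were apart, compared with 62.2% of genes above 0 in either mouse.

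Most members were higher in replicate 1. Exon FPKM was higher in replicate 1 for 30 of the 38 members, compared with 53.2% of genes above 0 in either mouse. It was higher in replicate 2 for 4 members, compared with 5767 of those 14325 genes, and equal for 4. Many of these differences were small and rested on few reads. The count was 29 of 38 after median-ratio scaling, which shifts all genes by only 0.0995 on the log2 scale, with 49.4% of genes. It was 36 of 38 when each mouse was rescaled to a summed exon FPKM of 1000000, which shifts all genes by -1.07 on the log2 scale, and was then close to the 92.9% of genes. None of the 12 members with a mean of at least 1 was over 2-fold apart on the log2(FPKM + 1) scale, compared with 5.90% of the 9845 genes at that level. This scale understates the differences of low genes. With a pseudocount of 0.1, *E2f1* (-1.36) and *Ccne1* (-1.09) were over 2-fold apart, 2 of 12 members compared with 11.2% of genes. After rescaling to an equal sum these and *Mcm4*, *Pcna* and *Mki67* were, 5 of 12 compared with 43.9% of genes. The median log2 ratio of replicate 2 to replicate 1 over the 12 members was -0.35, compared with -0.08 over the 9845 genes. After rescaling to an equal sum it was -0.95, with -0.92 over all genes, so the members were then close to the other genes. The log2 ratio was below 0 for all 12 members, compared with 55.4% of the 9845 genes, and for 11 after median-ratio scaling, compared with 49.7%. After rescaling to an equal sum it was below 0 for all 12, compared with 98.1% of 9557 genes. Of the 12 members, 8 had at least 1 FPKM in both mice. *E2f1*, *Ccne1*, *Rrm2* and *Gmnn* were below 1 in replicate 2 and passed the filter through replicate 1. *Tyms* (0.8 and 1.0), higher in replicate 2, fell short of it. The counts and medians over the 12 thus rest partly on members let in by the mouse where they were higher.

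Across genes, ratios of the mice fell with rising exon GC content, with a Spearman rho of -0.658 over 9725 genes, which are not independent replicates, so the members were also read against it. The 12 members had a median exon GC content of 46.4%, lower than the 50.2% of these genes. After removal of the GC relation by a lowess fit, chosen after seeing the data, the median log2 ratio of the members was -0.42, and that of all genes 0.000473. The part of GC content in the difference between the mice was not tested beyond this fit. In replicate 1 the 10 highest genes held 79.5% of the summed exon FPKM, and in replicate 2 they held 90.6%. The part of milk protein RNA, depth or cell content in the difference between the mice was not tested.

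**Figure D3:**
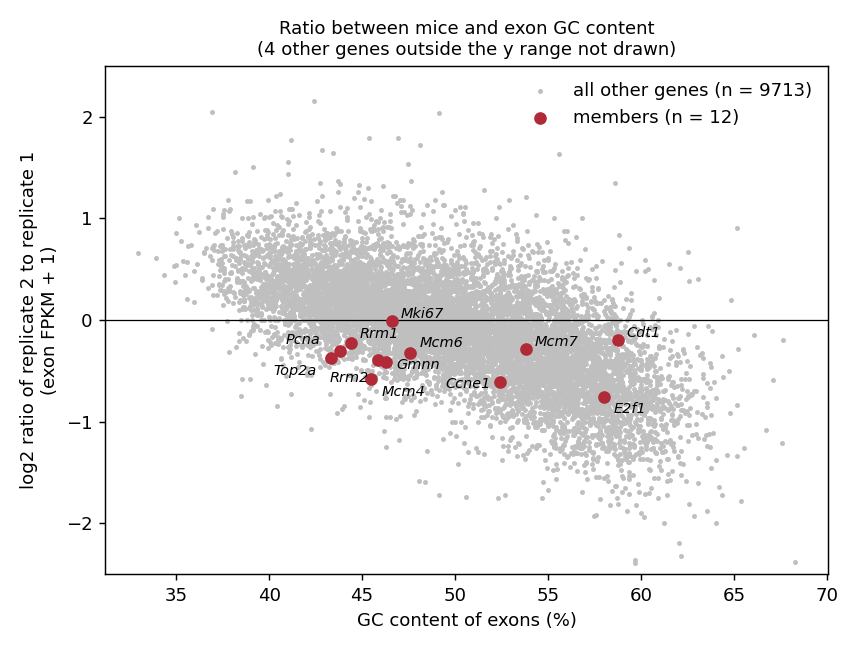
Log2 ratio of replicate 2 to replicate 1 (exon FPKM + 1) against exon GC content in percent, for the 12 members averaging at least 1 exon FPKM (red) and 9713 other genes (gray, 4 of them outside the drawn range). All 12 members lie below 0 (11 after median-ratio scaling, 12 after rescaling to an equal sum), compared with 55.4% of genes (49.7% and 98.1%), from -0.01 for *Mki67* to -0.75 for *E2f1*, at GC contents where other genes lie on both sides. Of the 12, 8 had at least 1 FPKM in both mice, and the others passed the filter through replicate 1.

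Introns are present in RNA that is not yet spliced, but intron reads can also come from other genes within them, and the sources of the members' intron reads were not tested. Intron FPKM was above 0 in both mice for 11 of the 38 members, compared with 50.4% of all genes. These were 9 replication members and 2 mitosis members, *Mki67* and *Plk1*. Introns of 20 members were at 0 in both mice, compared with 9009 of all 20515 genes. Taken singly, 17 members were above 0 in replicate 1 (53.3% of all genes) and 12 in replicate 2 (53.2%), and 5 had at least 0.2 in both mice (38.4%). *Mki67* and *Pcna* had the highest mean intron FPKM. *Mki67* had 0.6 in replicate 1 and 0.4 in replicate 2, from about 99 and 33 reads. *Pcna* had 0.3 and 0.7, from about 8 and 9 reads. *Tyms* and *Mcm7* followed, with 0.2 and 0.3, and with 0.3 and 0.2. Over the 12 members that averaged 1 exon FPKM or more, the log2 intron to exon ratio had a median of -3.09 in replicate 1 and -3.16 in replicate 2 (-3.12 ± 0.0512, SD, n = 2). Over the 9845 genes it was -3.62 and -3.51, but the pseudocount of 0.1 weighs more on low genes such as the members, and with a pseudocount of 1 the values averaged over the mice were -1.15 for the members and -2.17 for all genes.

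The members were set beside other genes of the cell cycle. Of 46 further replication genes, 27 averaged at least 1 exon FPKM, with medians of 1.35 and 1.6. The highest were *Pold3*, a subunit of DNA polymerase delta (25.7 and 29.0), *Rpa1*, which binds single-stranded DNA (15.9 and 10.2), and the flap nuclease *Fen1* (11.0 and 6.4). Of 51 further mitosis genes in the files, 8 reached 1, and their medians of 0.3 and 0.2 equal those of the mitosis members. The highest were *Cks1b* (11.1 and 8.3), *Smc4* (4.1 and 5.3) and *Spc25* (3.6 and 2.9). *Pttg1*, the securin gene, was over 2-fold apart, at 4.7 and 1.4. The difference between these lists was not tested.

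Genes that drive G1, before S phase, and genes that restrain the cycle had higher medians than both classes. Of 12 G1 drivers, 10 reached a mean of 1, with medians of 4.1 and 4.55. *Cdk4* had 15.3 and 17.8, and its partner cyclin gene *Ccnd1* had 8.7 and 8.1. *Myc*, a growth regulator, had 5.7 and 6.3. Of 22 genes that restrain the cell cycle, 18 reached 1, with medians of 3.15 and 4.2. *Tob1*, an antiproliferative gene, led with 59.1 and 87.4, followed by the pocket protein gene *Rbl2* (18.6 and 25.9) and *Btg2* (21.6 and 14.8). Of the 20 that were above 0 in either mouse, 6 were higher in replicate 1 as deposited (members 30 of 38, genes above 0 in either mouse 53.2%). After rescaling to an equal sum all 20 were (members 36 of 38, genes 92.9%).

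**Figure D4:**
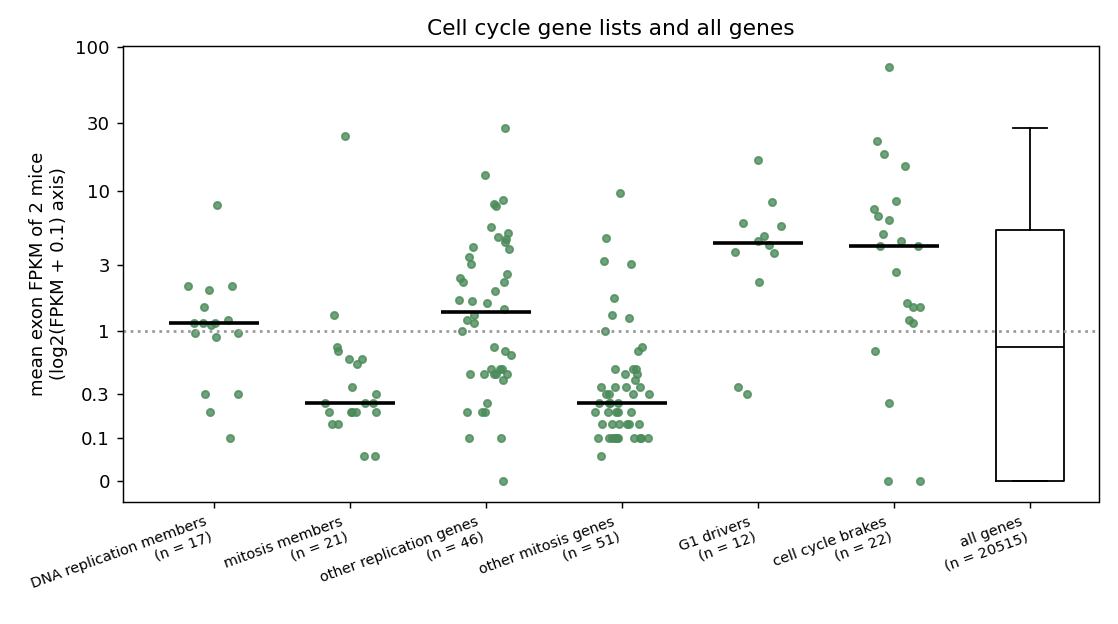
Mean exon FPKM of 2 mice on a log2(FPKM + 0.1) axis for each gene (points) of the 2 member classes and 4 other cell cycle lists, with bars at the list medians, and for all 20515 genes (box from the lower to the upper quartile, whiskers at percentiles 5 and 95). The replication lists lie around 1 FPKM, both mitosis lists mostly below it, and the G1 drivers and brakes above it.

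Cell type markers showed which cells could supply these transcripts. All 7 secretory epithelium markers were present, led by *Csn2* (108555 and 481937), *Wap* (172935 and 234774) and *Lalba* (8453.5 and 8265.4), and *Csn2*, *Krt18* (145.0 and 57.6) and *Krt8* (31.4 and 14.6) were over 2-fold apart, so the labelled tissue held its defining markers. The summed exon FPKM of this list was 290439 and 725365. Of 5 myoepithelial markers, 4 reached 1 (summed 112.6 and 71.3), led by *Myh11* (69.2 and 38.8), *Oxtr* (18.9 and 23.6) and *Krt14* (17.9 and 5.4, over 2-fold apart), and *Acta2* was listed at 0 in both mice. Of 9 immune markers, 4 reached 1 (summed 15.1 and 11.8), with *Csf1r* (5.9 and 3.9), *Ptprc* (3.0 and 3.2) and *Adgre1* (3.2 and 1.8) highest. The lymphocyte markers *Cd3e* and *Cd79a* were listed at 0 in replicate 1 and had 0.1 and 0.4 in replicate 2. The 5 plasma cell markers (summed 465.6 and 606.5) were led by *Xbp1* (346.5 and 508.5), *Jchain* (107.4 and 89.3) and *Sdc1* (6.4 and 3.8), of which epithelium also expresses *Xbp1* and *Sdc1*. The 4 endothelial markers (summed 50.1 and 41.8) were led by *Cdh5* (17.3 and 17.4), *Pecam1* (14.8 and 13.1) and *Kdr* (14.0 and 9.6). The 4 fibroblast markers (summed 141.2 and 137.0) were led by *Dcn* (42.9 and 78.4), *Col3a1* (71.2 and 43.6) and *Col1a1* (23.5 and 11.2, over 2-fold apart). The 4 adipocyte markers (summed 600.4 and 683.9) were led by *Fabp4* (501.7 and 564.0), *Adipoq* (85.3 and 113.0) and *Plin1* (7.8 and 2.6, over 2-fold apart). Which of these cells held the members' transcripts was not tested.

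Some members share sequence with other loci, which makes their values uncertain. Near-identical copies of the coding sequence were found for 5 members, 3 for *Ccnb1* and 1 each for *Cdc6*, *Mcm7*, *Pcna* and *Tk1*. Of these, *Ccnb1*, *Cdc6* and *Tk1* were listed at 0 in a mouse, and *Pcna* was the highest member of its class. The other members listed at 0 in a mouse, *Bub1*, *Aurkb* and *Plk1*, had no copy. Among housekeeping genes, *Ppia* with 17 copies had 0.4 and 0, and *Gapdh* with 46 copies had 0.1 and 0.3. *Rplp0* with 3 copies had 236.0 and 152.4, and *Acta2*, listed at 0 in both mice, had no copy. The part of copies in low or 0 values was not tested. The highest exon FPKM among the housekeeping genes were those of *Eef2* (764.1 and 340.6, with 2 copies), *Actb* (502.1 and 404.8) and *B2m* (202.4 and 432.8). As deposited, *Eef2* and *B2m* were over 2-fold apart in opposite directions. The log2 ratio of *B2m* was 1.09, and rescaling to an equal sum shifts all genes by -1.07, so its call depends on the scaling. In all, 14 of 16 housekeeping genes reached 1. Protein-coding genes overlap 7 members (*Ccne2*, *Tk1*, *E2f1*, *Ccna2*, *Cdc20*, *Kif20a* and *Foxm1*), and whether the authors counted by strand is not given in the sources used here.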

How the data were processed

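Total RNA from L10 mammary glands of 2 wt/Wap-Tbrg4 mice was sequenced by the authors on a HiSeq system from stranded libraries. The authors mapped reads to mm10 with STAR, used HTSeq to count reads separately on merged exons and on introns, and generated FPKM values with DESeq2; versions, the handling of multiply mapped reads and the scaling total are not given in the sources used here. The deposited FPKM were used as they are, without counts. Of 20550 listed genes, 35 without a usable symbol were left out.

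Members and lists were chosen with earlier results of these data known. Classes were described by counts and medians, as mean and SD over the 2 mice. Ratios between mice were log2 of FPKM + 1 where exons averaged 1 FPKM or more, and intron to exon ratios used a pseudocount of 0.1. No test was made. Named genes were the members, the 3 highest genes of each other list, any list gene over 2-fold apart, and housekeeping genes listed at 0; *Acta2*, *Gapdh*, *Rplp0*, *Cd3e* and *Cd79a* were named after their values were seen. The list of further mitosis genes has 53 entries, of which 51 are in the files.

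The worth of 1 read was estimated, by a procedure set after seeing the values, from RefSeq genes with 1 transcript as the step whose multiples held most low values of exons or introns of 60 to 450 bp (FPKM times kb under 0.4); 16 length and value ranges gave 0.0995 to 0.1005 in replicate 1 and 0.1965 to 0.1995 in replicate 2. The procedure was tested on simulated data. Read numbers are estimates, since the authors' lengths come from UCSC genes. Lengths, GC content, overlaps and promoters came from RefSeq on GRCm38.p6, the assembly that UCSC calls mm10, and matched 98.2% of genes. Copies were places other than the gene itself where minimap2 aligned at least 50% of the coding sequence at an identity of at least 95%. Alternatives in scaling, pseudocount, filter, average and replicate were run. Alignment used minimap2 2.31-r1302, the lowess fit statsmodels 0.14.6, intervals scipy 1.17.1, tables pandas 2.3.3 with numpy 2.4.6, and plots matplotlib 3.10.9, in Python 3.11.15.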

Additional observations from a re-analysis of the deposited data

How the results depend on the processing

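Of 54 alternative values, 34 stayed within 1 SD of the 2 mice, within 0.1 for the median ratio between mice, or within 1.5-fold for a count. Part of this is fixed by construction: leaving out 1 of 2 mice moves the mean of their class medians by less than 1 SD, and scaling changes neither a ratio of medians within a mouse nor which introns are above 0. The log2 ratio of the class medians was reversed to -3.23 with members at a mean of at least 1 only, was 1.17 with means of log2(FPKM + 0.1), and was 2.035 without members that have near-identical copies (chosen after seeing the data). The mitosis median was 12.8 and 0.363 under the first 2 of these. A threshold of 0.5 gave 20 members in place of 12 (53.9% of all genes in place of 48.0%). The median ratio between mice was -0.95 after rescaling to a summed exon FPKM of 1000000 (-0.92 over all genes), -0.54 with a pseudocount of 0.1, -0.24 without a filter and -0.16 at a mean of at least 5; members over 2-fold apart were 5 and 2 of 12 under the first 2 of these (43.9% and 11.2% of all genes). Requiring an intron FPKM of 0.2 left 5 of 11 members (38.4% of all genes in place of 50.4%). The median intron to exon ratio was -2.89 after rescaling, -3.44 and -1.15 with pseudocounts of 0.05 and 1, -2.16 without a filter and -3.54 with values above 0 only, where members with exons at 0 drop out. Without each replicate in turn, members at 1 or more were 9 to 14, those with introns 12 to 17, the intron ratio -3.25 to -3.09 and the log2 ratio of medians 2.17 to 2.22. Why scaling and filters move these values was not tested. No paired analysis was possible because there is 1 group. With a median of about 4 reads per mitosis member in replicate 2, single low members cannot be ordered.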

Other observations

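*Ncapd2*, a condensin subunit of the further mitosis genes, had a higher intron than exon FPKM in both mice, chosen here after its values were seen. Introns had 3.0 FPKM in replicate 1 against 1.7 for exons, and 10.5 in replicate 2 against 0.8. RefSeq places the small RNA gene *Scarna10* within *Ncapd2* on the same strand. Whether reads of *Scarna10* were counted on the intron was not tested.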
